A study of Mus musculus with 9 samples.

Results

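Gad1, Gad2, Slc32a1, Pvalb, Gata3, Sst and Npy are genes of inhibitory neurons that release γ-aminobutyric acid (GABA). They were taken by symbol, with no threshold on a measured value although earlier results of these data were known, from a gene table of polyadenylated RNA in mouse substantia nigra. The 7 genes are 7 of 55335 in the table, and all 7 were among the 15997 genes tested, whose mean over the libraries reached 0.5 FPKM (fragments per kilobase of transcript, scaled to the mapped fragments of the library). The study had 3 groups of 3 libraries. Vehicle mice were injected with saline 2 times a week for 5 weeks. MPTP mice were injected into the abdominal cavity, on the same schedule, with 20 mg/kg of MPTP hydrochloride in saline, a compound whose metabolite is toxic to dopaminergic neurons. The running mice received the same MPTP course and had 2 months of voluntary wheel exercise from the first injection on. All 3 groups therefore share repeated injections, no group ran without MPTP, and the strain, sex and age of the mice were not given in the sources used here. The labels speak of 3 mice in each group without saying that each library is 1 mouse, so the tests below set differences against the spread of libraries, which may be technical in part.

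The pars reticulata of the substantia nigra consists mostly of GABAergic projection neurons, which fire fast and without pause, and many of which contain parvalbumin. GABA is made from glutamate by glutamate decarboxylase, whose isoforms are encoded by Gad1 and Gad2, and it is loaded into synaptic vesicles by the transporter encoded by Slc32a1. Pvalb encodes parvalbumin, a calcium buffer of fast-spiking neurons, and Gata3 encodes a transcription factor of GABAergic neurons in the midbrain and hindbrain. Sst and Npy encode somatostatin and neuropeptide Y, peptides that are found together in subsets of GABAergic interneurons of the cortex, hippocampus and striatum.

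Promoter sequences are shown for the pair of genes whose levels went together across the libraries, Sst and Npy. They are also shown for Slc32a1 and Gad2, whose levels both tended to run opposite to those of Sst and Npy. They are RefSeq sequences on GRCm38.p6, written 5′ to 3′ on the strand of the gene, with positions counted upstream from the RefSeq start. All 7 genes had a promoter in the RefSeq table, Pvalb with 2 start sites. The 250 bases before each start were searched on both strands for 4 motifs, which do not overlap each other in these windows. TGACGTCA is the cAMP response element. The letters TATAAA are a form of the core promoter box that positions transcription. The letters CCAAT are bound by the factor NF-Y. The letters GATAA are bound by the family of factors to which the Gata3 protein belongs. Capitals mark a match. For Sst, the 30 bases around the match (chr16:23890874-23890903, minus strand, 59 to 30 bases upstream) and the stretch before the GENCODE start of the gene, which lies 114 bases further upstream (chr16:23890959-23891094), are given.
Sst, around the match: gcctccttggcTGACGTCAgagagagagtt
Sst, 250 to 115 bases upstream: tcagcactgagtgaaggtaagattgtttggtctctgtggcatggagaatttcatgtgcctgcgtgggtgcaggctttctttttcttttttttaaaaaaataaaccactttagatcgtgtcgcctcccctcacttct
Npy, chr6:49822460-49822709, plus strand: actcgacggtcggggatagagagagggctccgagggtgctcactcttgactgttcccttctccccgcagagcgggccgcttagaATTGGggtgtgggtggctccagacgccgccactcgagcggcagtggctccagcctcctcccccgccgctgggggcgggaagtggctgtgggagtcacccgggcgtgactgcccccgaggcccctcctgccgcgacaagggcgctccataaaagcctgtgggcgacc
Slc32a1, chr2:158610508-158610757, plus strand: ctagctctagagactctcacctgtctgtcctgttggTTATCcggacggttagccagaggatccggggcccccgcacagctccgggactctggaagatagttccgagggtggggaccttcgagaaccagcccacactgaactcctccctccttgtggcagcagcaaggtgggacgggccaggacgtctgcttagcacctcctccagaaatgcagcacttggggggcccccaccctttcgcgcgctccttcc
Gad2, chr2:22622077-22622204, plus strand, to the base before its GENCODE start: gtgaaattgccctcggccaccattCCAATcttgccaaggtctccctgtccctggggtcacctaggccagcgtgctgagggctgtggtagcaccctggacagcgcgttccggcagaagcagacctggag

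The cAMP response element of Sst starts 48 bases upstream, and an exact match to it was held by 508 of 32851 RefSeq promoters of the same length (1.55%). The motif was not among the letters of the other 6 genes' windows. Npy and Gad2 held a CCAAT match, on the minus strand 166 bases and on the plus strand 226 bases upstream, which 33.8% of promoters hold. Slc32a1 held GATAA on the minus strand 214 bases upstream (22.6% of promoters), and Gad1 held TATAAA on the minus strand 141 bases upstream (12.4% of promoters). Gata3 and both windows of Pvalb held no match. No motif was therefore shared by Sst and Npy in these windows, while Npy and Gad2, which tended opposite ways, shared one.

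The libraries differed in markers of brain regions within each group, and the marker genes named here were chosen with their values known. The dopaminergic marker Th, tyrosine hydroxylase, ranged from 1.64 FPKM in MPTP library 2 to 15.6 in vehicle library 3. Slc6a3, the dopamine transporter, reached 14.4 FPKM in MPTP library 3 and was listed at 0 in running library 2, and Pitx3, a transcription factor of nigral dopaminergic neurons, was listed at 0 in 5 of 9 libraries. Neurod6, a gene of cortical and hippocampal excitatory neurons, ran from 1.43 FPKM in vehicle library 1 to 54.0 in running library 3. Prkcd, strong in thalamic neurons, ran from 2.40 FPKM in vehicle library 2 to 48.3 in vehicle library 1. Hoxb5, a hindbrain gene, reached 10.01 FPKM in running library 2 and was listed at 0 in 4 of 9 libraries, and Pmch, a hypothalamic peptide, reached 66.2 in vehicle library 3 against at most 4.37 in the others. Within each group the libraries thus differed in markers of regions outside the substantia nigra, and in defining dopaminergic markers. The 10 dopaminergic genes summed to 57.3 to 91.4 FPKM in vehicle, 49.2 to 104 in MPTP and 54.1 to 91.9 in running libraries, 91.9 being running library 2, and a gene listed at 0 can be a failed estimate. A bulk table cannot place the 7 genes in the pars reticulata, so they are described below as GABAergic neuron genes. Estimated depth was 22400000 to 27160000 fragments per library.

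The GABA-synthesis gene Gad1 (ENSMUSG00000070880, chr2:70553072-70602014, GRCm38, 8 annotated transcripts) stood at 53.3, 34.7 and 68.4 FPKM in vehicle libraries 1, 2 and 3. It stood at 44.1, 37.1 and 50.5 FPKM in the MPTP libraries and at 47.0, 33.6 and 44.8 in the running libraries. Library 2 was the lowest of each group, vehicle library 3 was the highest of all 9, and the groups overlapped. The group means were 52.1 ± 16.9 (SD, n = 3), 43.9 ± 6.7 and 41.8 ± 7.2 FPKM. On the log2(FPKM + 1) scale, MPTP differed from vehicle by −0.20 (SE 0.24, 95% interval −0.74 to 0.35, limma adjusted p = 0.991) and the running mice from MPTP mice by −0.07 (−0.62 to 0.47, adjusted p = 0.9999).

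Gad2 (ENSMUSG00000026787, chr2:22622205-22693874), the other decarboxylase gene, had 63.9, 39.4 and 53.5 FPKM in vehicle libraries 1, 2 and 3. Its values were 51.5, 25.4 and 57.0 FPKM under MPTP and 35.5, 39.5 and 42.8 with running. MPTP library 2 was the lowest of the 9 and vehicle library 1 the highest, and the running libraries lay inside the range of the other groups. The means were 52.3 ± 12.3, 44.6 ± 16.9 and 39.2 ± 3.7 FPKM (SD, n = 3). Running mice differed from vehicle mice by −0.38 (SE 0.29, 95% interval −1.04 to 0.28, limma adjusted p = 0.784), and MPTP from vehicle by −0.28 (−0.94 to 0.38, adjusted p = 0.991).

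The vesicular transporter Slc32a1 (ENSMUSG00000037771, chr2:158610767-158615748) had 42.6, 28.2 and 37.1 FPKM in vehicle, 42.3, 31.3 and 38.0 in MPTP and 22.5, 43.6 and 31.1 in running libraries 1, 2 and 3. The lowest and the highest of the 9 values were thus both from running mice, libraries 1 and 2. The means were 35.9 ± 7.3, 37.2 ± 5.6 and 32.4 ± 10.6 FPKM (SD, n = 3). The difference of running from MPTP mice was −0.23 (SE 0.24, 95% interval −0.78 to 0.31, limma adjusted p = 0.9999) and that of MPTP from vehicle mice 0.06 (−0.49 to 0.60, adjusted p = 0.994). Of its 2797 exonic bases, 697 overlap the antisense gene Gm14205, and the strand setting of the counting was not given in the sources used here. Reads of the pair cannot be told apart, but Gm14205 itself was given at most 0.303 FPKM.

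Pvalb (ENSMUSG00000005716, chr15:78191114-78206400) had 67.1, 72.0 and 35.2 FPKM in vehicle libraries 1, 2 and 3. Under MPTP it had 105, 114 and 62.5 FPKM, and with running 82.1, 121 and 48.7. The third library was the lowest of each group, and the values of MPTP libraries 1 and 2 and of running libraries 1 and 2 lay above all vehicle values. The means were 58.1 ± 20.0, 93.6 ± 27.3 and 84.1 ± 36.4 FPKM (SD, n = 3), a ratio of 1.61 for MPTP to vehicle. The difference of MPTP from vehicle, 0.70 (SE 0.39, 95% interval −0.18 to 1.58), did not pass the test (limma adjusted p = 0.991), nor did that of running from vehicle mice, 0.50 (−0.38 to 1.38, adjusted p = 0.789). Without vehicle library 3 these differences were 0.38 and 0.18. The exact two-sided permutation test gave p = 0.3 for MPTP against vehicle, where 3 against 3 libraries allow 0.1 at the lowest.

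Gata3 (ENSMUSG00000015619, chr2:9857078-9890034) was the scarcest of the 7, with 3.30, 2.23 and 0.708 FPKM in vehicle libraries 1, 2 and 3. It had 2.61, 0.359 and 1.22 FPKM in the MPTP and 0.815, 0.971 and 1.73 in the running libraries. Vehicle library 1 and MPTP library 1 were the highest and MPTP library 2 the lowest, within groups that overlapped. These values rest on an estimated 27 to 238 fragments per library. The means were 2.08 ± 1.304, 1.39 ± 1.14 and 1.17 ± 0.49 FPKM (SD, n = 3), and the difference of running from vehicle mice was −0.43 (SE 0.41, 95% interval −1.36 to 0.50, limma adjusted p = 0.826). It was −0.14 without vehicle library 1 and −0.80 without vehicle library 3. Gata3 shares 77 exonic bases with 9230102O04Rik on its own strand and 155 with antisense Gm13256, which were given at most 0.211 FPKM and 0 in every library.

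Sst (ENSMUSG00000004366, chr16:23889573-23890958), the peptide gene whose promoter holds the cAMP response element printed above, had the highest mean level of the 7. It had 56.2, 110.5 and 102 FPKM in vehicle libraries 1, 2 and 3, 82.3, 154 and 109 in the MPTP libraries and 145, 101 and 127 in the running libraries. Vehicle library 1 was the lowest and MPTP library 2 the highest, and the groups overlapped. The means were 89.7 ± 29.3, 115 ± 36.4 and 124 ± 21.98 FPKM (SD, n = 3). Running mice differed from vehicle mice by 0.51 (SE 0.30, 95% interval −0.17 to 1.18, limma adjusted p = 0.765), and MPTP from vehicle mice by 0.37 (−0.31 to 1.04, adjusted p = 0.991). Without vehicle library 1, these differences were 0.21 and 0.07.

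Npy (ENSMUSG00000029819, chr6:49822710-49829507) had 19.7, 53.9 and 56.7 FPKM in vehicle, 39.1, 84.6 and 32.0 in MPTP and 71.0, 27.9 and 52.3 in running libraries 1, 2 and 3. As with Sst, vehicle library 1 was the lowest and MPTP library 2 the highest. The means were 43.5 ± 20.6, 51.9 ± 28.5 and 50.4 ± 21.6 FPKM (SD, n = 3). The 95% interval of the difference of running from MPTP mice, −0.01, ran from −1.17 to 1.15 on the log2 scale (limma adjusted p = 0.9999), so that changes of 1 log2 unit either way lie within it.

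**Figure D1:**
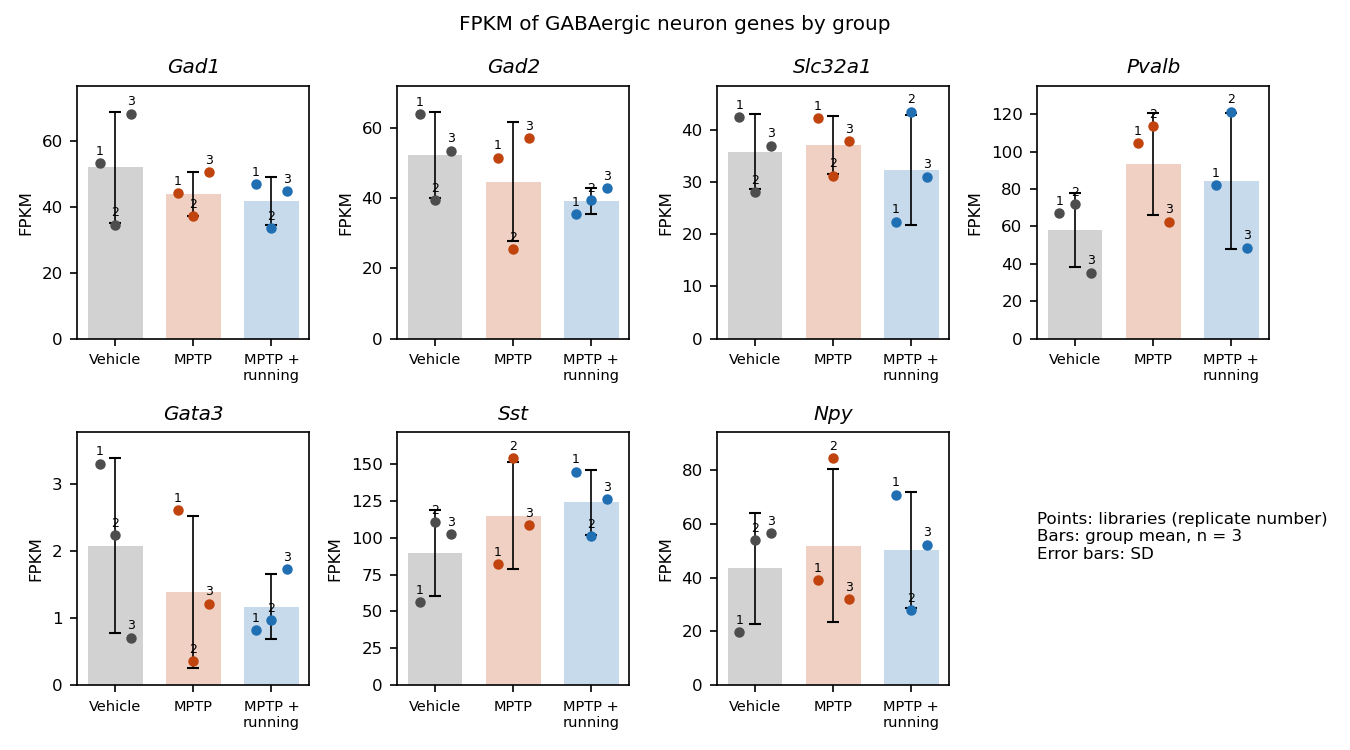
FPKM of each of the 7 genes in vehicle, MPTP and MPTP-plus-running libraries; points are libraries with their replicate number, bars the group mean and error bars the SD of 3 libraries. The groups overlap for every gene, and single libraries such as vehicle 1 for Npy (19.7 FPKM) or MPTP 2 for Gad2 (25.4 FPKM) stand at the edge of their group.

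FPKM is scaled by transcript length, so the listed values of the genes can be set in order. The length used for each gene was not given in the sources used here. For Gad1 the longest transcript has 3601 bases and all exons together 7639, so its place may depend on that choice. Over the 9 libraries the means were 109.7 FPKM for Sst, 78.6 for Pvalb, 48.6 for Npy, 45.9 for Gad1, 45.4 for Gad2, 35.2 for Slc32a1 and 1.55 for Gata3. Sst was above Pvalb in 6 of 9 libraries, and Pvalb above Npy in 7 of 9. Npy was above Gad1 in 4 of 9 libraries and Gad1 above Gad2 in 4 of 9, so the order of these 3 is not settled by the values. Gad2 was above Slc32a1 in 7 of 9, and Gata3 was the lowest in all 9. Sst exceeded Gad1, Slc32a1, Npy and Gata3 in all 9 libraries and Gad2 in 8, the exception being vehicle library 1 with 56.2 against 63.9 FPKM.

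None of the 7 genes passed limma's adjusted threshold of 0.05 in any of the 3 comparisons, and none had an unadjusted p under 0.05 in the fit without pairing. With the replicate number as a block, the unadjusted p of Pvalb was under 0.05 for MPTP against vehicle, but not its adjusted p (limma adjusted p = 0.275). That fit blocked the running libraries by number too, although the numbers were taken to pair only MPTP with vehicle. Of all genes tested 0.0125% passed for MPTP against vehicle (2 of 15997) and 0% in either comparison with running mice. An unadjusted limma p under 0.05 was found for 4.09% of tested genes (654) with MPTP against vehicle, 3.99% (639) with running against MPTP and 6.54% (1047) with running against vehicle. None of the 7 had groups without overlap, against 9.43% of tested genes for MPTP against vehicle, 8.02% for running against MPTP and 15.6% for running against vehicle. The median difference over the 7 was 0.06, −0.07 and −0.18 in these comparisons, beside −0.01, −0.01 and −0.02 over all tested genes. With MPTP, 4 of 7 were higher than with vehicle (Slc32a1, Pvalb, Sst and Npy), although Slc32a1 was lower, by −0.019, with every library rescaled to the same FPKM sum. With running only Sst was higher than under MPTP alone. Of all tested genes, 48.1% and 45.7% were higher in these 2 comparisons. The comparisons share libraries, so the 3 sets of values are not independent. In bulk tissue, fewer cells of a type and less RNA per cell cannot be told apart.

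**Figure D2:**
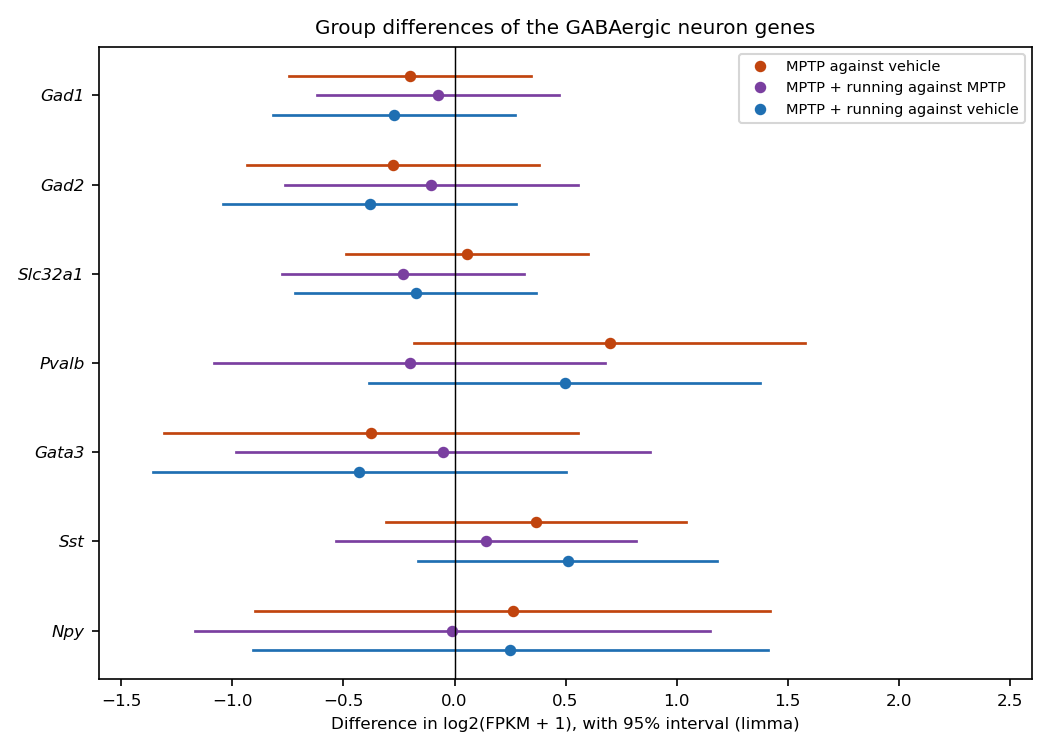
Differences in log2(FPKM + 1) of the 7 genes with 95% intervals from limma, for MPTP against vehicle, MPTP plus running against MPTP, and MPTP plus running against vehicle. All 21 intervals include 0, and the widest belong to Npy (−1.17 to 1.15 for running against MPTP).

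The precision of these comparisons was set by the spread between libraries of 1 group. The coefficient of variation within groups was 23.0% for Slc32a1, 24.6% for Gad1, 27.0% for Gad2, 27.2% for Sst, 36.5% for Pvalb, 49.1% for Npy and 67.0% for Gata3. The median over all tested genes was 14.9%, and over the 4160 tested genes above 10 FPKM 10.9%. Among those 4160 the 6 abundant genes lay at the 86.1 to 98.1 percentile of variation, and Gata3 lay at the 97.5 percentile of all tested genes. The GABAergic neuron genes thus varied more between libraries of 1 group than most genes did.

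Ratios within a library do not depend on its scaling. Gad1 to Gad2 lay between 0.833 in vehicle library 1 and 1.46 in MPTP library 2. Slc32a1 to Gad2 lay between 0.634 in running library 1 and 1.23 in MPTP library 2. These ratios of synthesis and loading genes spanned 1.76-fold and 1.94-fold across the libraries. The ratios of the peptide genes and of Pvalb to Gad2 spanned more. Sst to Gad2 was 0.879 in vehicle library 1 and 6.08 in MPTP library 2, and Npy to Gad2 was 0.309 and 3.33 in the same libraries. Pvalb to Gad2 went from 0.658 in vehicle library 3 to 4.48 in MPTP library 2. Npy to Sst stayed between 0.276 and 0.553, with Sst the higher of the pair in all 9 libraries. None of the 21 tests of 7 ratios in 3 comparisons passed, the lowest exact two-sided permutation p being 0.2 (adjusted p = 0.919), with 0.1 the lowest possible.

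The 7 genes did not vary as 1 set across the 9 libraries. Relations were computed for the 21 pairs of genes and for each gene with 5 scores, each the mean log2(FPKM + 1) of a list of marker genes, which made 56 relations in all. With exact permutation p-values adjusted over the 56, 5 passed 0.05 by Pearson's r and 6 by Spearman's rho, and 19 had an unadjusted p under 0.05 by r. The labels name no batch, so no relation could be recomputed within batches, and r is also given after subtracting the group means.

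Sst and Npy varied together, with r = 0.86 (exact permutation p = 0.00263, adjusted p = 0.0369) and rho = 0.82 (exact permutation p = 0.0108, adjusted p = 0.0670). The r was 0.76 without vehicle library 1 and running library 2, the libraries farthest from the median, and 0.91 within groups. Both also went with the score of hippocampal and cortical excitatory neurons. For Sst, r was 0.90 (exact permutation p = 0.000937, adjusted p = 0.0262) and rho 0.90 (exact permutation p = 0.00203, adjusted p = 0.0227), with 0.86 without the same libraries and 0.91 within groups. For Npy, r was 0.88 (exact permutation p = 0.00195, adjusted p = 0.0365) and rho 0.78 (exact permutation p = 0.0172, adjusted p = 0.0877), and r fell to 0.65 without those libraries. The excitatory score holds 12 genes, none at 0 in any library, whose summed level was 219 to 795 FPKM in vehicle, 497 to 1146 in MPTP and 360 to 1002 in running libraries. Its part in the group differences of Sst and Npy was not tested.

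Slc32a1 and Gad2 both tended to run opposite to Sst and Npy. Slc32a1 had r = −0.77 with Npy (exact permutation p = 0.0160, adjusted p = 0.0688; rho −0.78, p = 0.0172, adjusted p = 0.0877) and Gad2 had r = −0.80 with Sst (exact permutation p = 0.0101, adjusted p = 0.0639; rho −0.77, p = 0.0214, adjusted p = 0.0921). Neither passed after adjustment. Slc32a1 with the excitatory score gave r = −0.79 (exact permutation p = 0.0106, adjusted p = 0.0639) and rho = −0.90 (p = 0.00203, adjusted p = 0.0227), which passed by rank only. With the striatal projection neuron score, Slc32a1 had r = 0.81 (exact permutation p = 0.00990, adjusted p = 0.0639; rho 0.82, p = 0.0108, adjusted p = 0.0670). Sst had r = −0.77 with that score (exact permutation p = 0.0107, adjusted p = 0.0639) and rho = −0.90 (p = 0.00203, adjusted p = 0.0227). The striatal score holds 11 genes, none at 0, with a summed level of 52.1 to 146 FPKM in vehicle, 45.3 to 169 in MPTP and 62.4 to 166 in running libraries.

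Gad1 passed with 2 other scores. It went with the thalamic score, with r = 0.84 (exact permutation p = 0.00410, adjusted p = 0.0460) and rho = 0.93 (p = 0.000750, adjusted p = 0.0227), and r was 0.81 without vehicle library 1 and running library 2. The 9 thalamic genes, none at 0, summed to 29.1 to 187 FPKM in vehicle, 26.7 to 143 in MPTP and 22.6 to 103 in running libraries. Against the pan-neuronal score, which holds 13 genes of all neurons, Gad1 had r = −0.92 (exact permutation p = 0.000438, adjusted p = 0.0245) and rho = −0.87 (p = 0.00451, adjusted p = 0.0421). With every library rescaled to the same FPKM sum this r was −0.79 (exact permutation p = 0.0114, adjusted p = 0.0654) and no longer passed. The single genes of that score had a median r of −0.47 with Gad1, and Map2 and Syt1 went the other way (0.58 and 0.42). Gad2 leaned the same way on both scores without passing. Its r was 0.69 with the thalamic score (exact permutation p = 0.0369, adjusted p = 0.109) and rho 0.75 (adjusted p = 0.102). With the pan-neuronal score its r was −0.72 (exact permutation p = 0.0283, adjusted p = 0.0881) and rho −0.73 (adjusted p = 0.103). Gad1 with Gad2 gave r = 0.64 (exact permutation p = 0.0626, adjusted p = 0.167; rho 0.67, p = 0.0589, adjusted p = 0.165), so the genes of the same reaction did not track each other past the threshold.

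Pvalb went with the pan-neuronal score by rank (rho = 0.92, exact permutation p = 0.00131, adjusted p = 0.0227) but not by r (0.79, p = 0.0125, adjusted p = 0.0639), and r was 0.59 without MPTP library 2 and running library 2. It was also 0.59 at the lowest with another pseudocount or the same FPKM sum. The single genes had a median r of 0.49 with Pvalb, and Map2, Syt1 and Syn1 went the other way (−0.77, −0.61 and −0.12). The pan-neuronal genes, none at 0, summed to 1448 to 1761 FPKM in vehicle, 1490 to 1846 in MPTP and 1559 to 2024 in running libraries. Pvalb also tended to run opposite to Gad1 without passing, with r = −0.77 (exact permutation p = 0.0149, adjusted p = 0.0688) and rho = −0.77 (p = 0.0214, adjusted p = 0.0921). That r was −0.39 without vehicle library 3 and running library 2. Gata3 passed with no gene or score. Its lowest adjusted p by r was with Sst (r = −0.77, exact permutation p = 0.0115, adjusted p = 0.0639; rho −0.63, p = 0.0760, adjusted p = 0.194), and r was −0.43 without vehicle library 1 and MPTP library 2. None of the 7 passed with the choroid plexus score, whose gene Ttr, transthyretin, ranged from 18.5 FPKM in running library 2 to 2010 in MPTP library 3. Within groups, r with this score was −0.86 for Pvalb, against −0.12 over all libraries, and 0.77 for Gad1, against 0.32. It lay between −0.37 and 0.37 for the other genes. The values within groups are a description without a test.

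**Figure D3:**
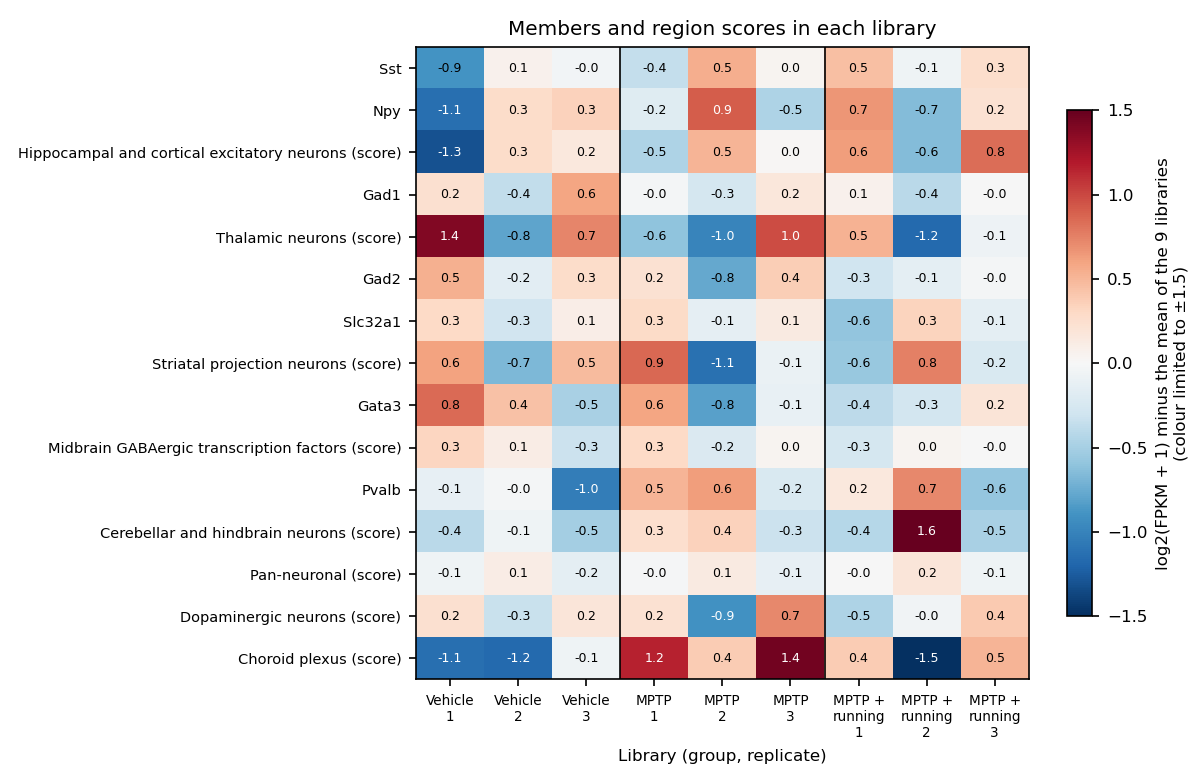
Deviation of each gene and of 8 marker scores from its mean over the 9 libraries, in log2(FPKM + 1), by library; red is higher and blue lower. Sst, Npy and the hippocampal and cortical score are all lowest in vehicle library 1 (−0.90, −1.13 and −1.31), where Gad2, Gata3 and the thalamic score are at their highest.

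**Figure D4:**
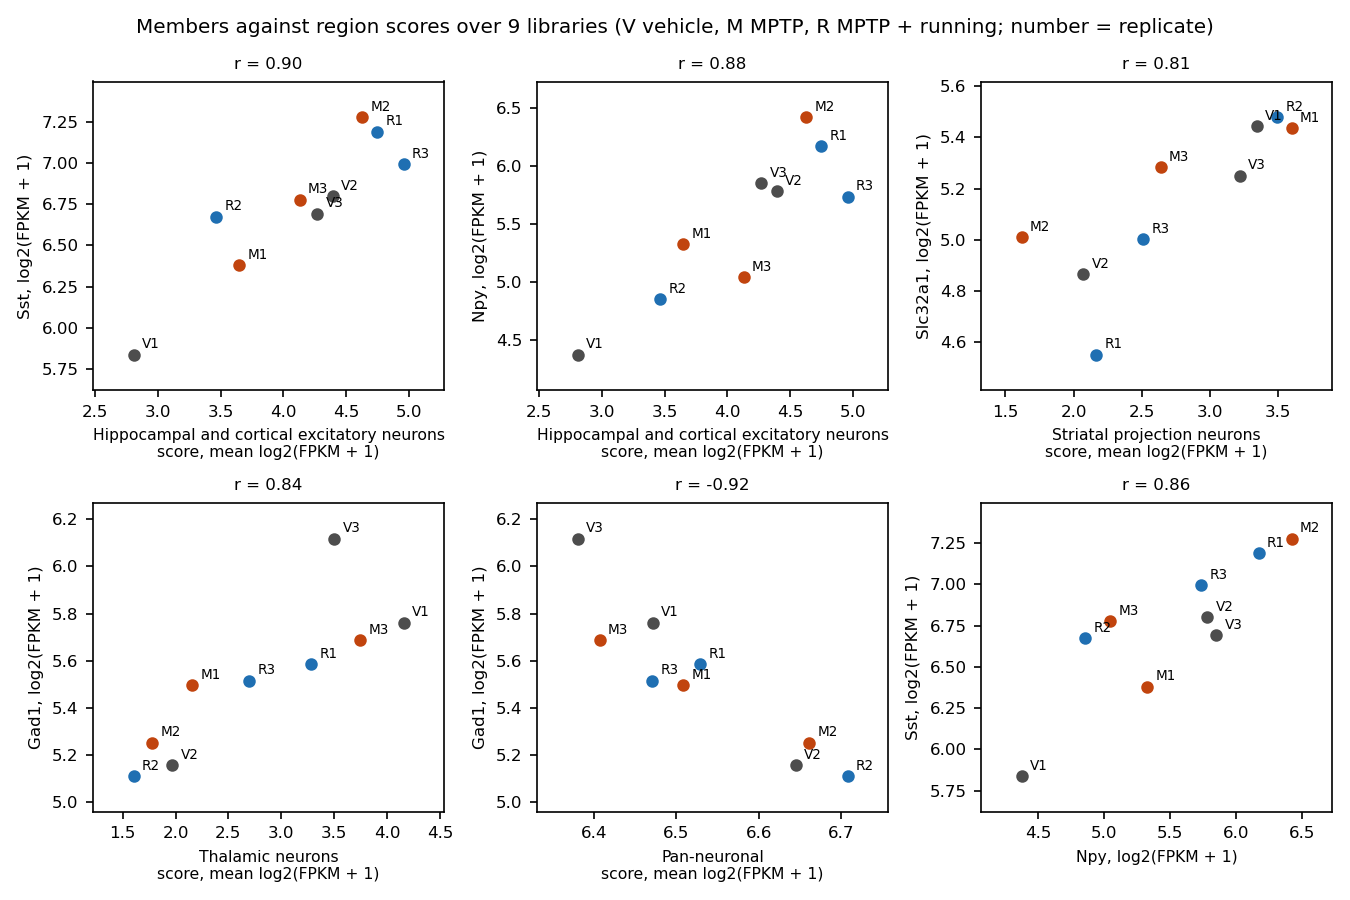
Each point is 1 of 9 libraries, with the log2(FPKM + 1) of a gene on the y axis and a marker score or a second gene on the x axis; colours mark the groups. Sst and Npy rise with the hippocampal and cortical score (r = 0.90 and 0.88) and Gad1 with the thalamic score (r = 0.84), with the groups intermingled.

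The genes most like each of the 7 were taken as the 5 with the highest r over the 9 libraries among the 12125 other genes that averaged 1 FPKM or more and had an official symbol, and they are a description without a test. For Sst they were Crhbp (r = 0.99), which encodes the binding protein of corticotropin-releasing hormone, Vip (0.97), a peptide of another interneuron class, Fmnl1, Psme3 and Adra1d. Crhbp had 1.63 FPKM in vehicle library 1 and 10.3 in running library 1, and Vip 1.08 and 7.48 in the same libraries. For Npy they were Il34 (0.98), Pak7, Psd, Tbr1 (0.98), a transcription factor of cortical excitatory neurons, and Acta1. Tbr1, which is in the excitatory score, ran from 1.37 FPKM in vehicle library 1 to 16.6 in MPTP library 2, the libraries at either end for Npy.

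For Pvalb the most alike were G0s2 (r = 0.99), Ntan1, Uqcrc1 (0.97), a subunit of respiratory complex III, Asb13 and Pink1 (0.96), a mitochondrial kinase. G0s2 went from 3.05 to 6.04 FPKM and Pink1 from 114 to 141, while Pvalb went from 35.2 to 121. For Gata3 they were Ogfod1 (0.95), Npas3, Smg6, Glra3 (0.93), a glycine receptor subunit, and Dgkk. For Gad2 they were Ankfy1 (0.98), Mttp, Cdh13 (0.98), Fchsd2 and Tbc1d16, for Slc32a1 Mthfd1 (0.98), Pld5, Bche, Efnb3 (0.95) and Gkap1, and for Gad1 Qsox2 (0.96), Tenm3, Cacng5 (0.94), Hist2h2be and Ppp1r7. No gene was among the 5 of more than 1 of the 7.

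The wider GABA pathway was read from 11 lists with 159 genes, of which 146 were tested. None of the 146 passed limma's adjusted threshold in any comparison. An unadjusted limma p under 0.05 was found for 2 with MPTP against vehicle (1.37%), 3 with running against MPTP (2.05%) and 4 with running against vehicle (2.74%). Over all tested genes these shares were 4.09%, 3.99% and 6.54%. Groups without overlap were found for 6 genes with MPTP against vehicle (4.11% of 146), for 8 with running against MPTP (5.48%) and for 9 with running against vehicle (6.16%), each below the share over all tested genes given above. Genes named below with a difference were among the 2 with the lowest p of their list in that comparison, and none passed the adjusted threshold. Others are named for their levels.

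Genes of GABA synthesis, uptake and breakdown had a median difference of −0.07 with MPTP against vehicle, −0.12 with running against MPTP and −0.17 with running against vehicle, with 9, 12 and 13 of 15 genes lower. Of all 15997 tested genes, 8294, 8686 and 8850 were lower in the same order. Slc38a3, a glutamine transporter, had 14.8, 16.1 and 13.3 FPKM in MPTP and 11.0, 11.6 and 11.2 in running libraries 1, 2 and 3. All running values lay below all MPTP values, a difference of −0.35 (SE 0.09, limma adjusted p = 0.9999). Vehicle libraries had 15.1, 12.7 and 14.0 FPKM of Slc38a3, also above all running values (−0.28, SE 0.09, limma adjusted p = 0.753). Slc38a5, a related transporter at 0.92 to 2.40 FPKM, differed by −0.42 between running and MPTP mice (limma adjusted p = 0.9999), and Slc6a13, a GABA transporter, by −0.35 between running and vehicle mice (limma adjusted p = 0.753). Endothelial markers were also lower in running mice, and their relation to these transporters across libraries was not computed. Their 7 genes, none listed at 0, summed to 43.9 to 48.8 FPKM in vehicle, 49.6 to 50.8 in MPTP and 36.1 to 43.5 in running libraries, with the fitted level of all 7 lower in running mice than in either other group (medians −0.29 and −0.29) and none past the adjusted threshold. Their part in the values of the transporters was not tested.

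Of 18 GABA-A receptor subunits, 14 were tested, with medians of −0.09, 0.03 and −0.07 in the same order of comparisons. Gabra5, the α5 subunit, which is strong in the hippocampus, had 9.21, 13.9 and 13.4 FPKM in vehicle and 18.4, 14.2 and 29.6 in running libraries 1, 2 and 3. All running values lay above all vehicle values, by 0.68 (SE 0.25, limma adjusted p = 0.753), and running library 3 was also the highest for Neurod6. Gabrg3, the γ3 subunit, differed by −0.27 between MPTP and vehicle mice (limma adjusted p = 0.991). The GABA-B receptors Gabbr1 and Gabbr2 with their associated subunits and channels had medians of −0.08, −0.04 and −0.05. Gabbr2 differed by −0.36 between running and vehicle mice (limma adjusted p = 0.770), and Kctd12, an auxiliary subunit, was listed at 0 in MPTP library 1 and at 7.81 to 20.9 FPKM elsewhere, so its differences are not given.

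Genes of the inhibitory postsynapse and of chloride transport had medians of −0.09, −0.04 and −0.15. Of these 12 genes 10, 8 and 11 were lower, beside 8294, 8686 and 8850 of the 15997 tested genes. Igsf9b, an adhesion molecule of inhibitory synapses, had 4.96, 7.42 and 6.47 FPKM in vehicle and 4.38, 4.21 and 4.84 in MPTP libraries, without overlap (−0.40, SE 0.16, limma adjusted p = 0.991). Lhfpl4, which anchors GABA-A receptors, differed by −0.20 between running and vehicle mice, also without overlap (limma adjusted p = 0.753). Among 6 tested genes of glycine transmission the medians were 0.02, −0.08 and −0.03. Slc6a5, the neuronal glycine transporter, ranged from 0.06 FPKM in vehicle library 3 to 34.6 in running library 2, the library with the highest Hoxb5.

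Among regulators, the 10 tested midbrain GABAergic transcription factors had medians of 0.03, −0.15 and −0.03, and the 15 tested forebrain ones −0.08, −0.06 and −0.11. Sox14 and Tal1, which act in midbrain GABAergic neurons, differed by −0.59 and −0.50 between running and vehicle mice (limma adjusted p = 0.765 and 0.770). Sox14 had 1.66 FPKM in vehicle library 1 and 1.71 in MPTP library 1, the libraries that were also highest for Gata3, and at most 0.69 in the others. Over the 9 libraries the median r of the midbrain factors was 0.64 with Gata3, −0.59 with Sst and −0.60 with Npy, given as a description. Other lists had like medians. In this order, vesicular glutamate transporters had 0.62, −0.51 and −0.75, and striatal projection neuron genes 0.45, −0.78 and −0.73. Hippocampal and cortical excitatory genes went the other way, with −0.56, 0.86 and 0.86. The forebrain factor Lhx6, which marks interneurons from the medial ganglionic eminence, differed by 0.27 between running and vehicle mice (limma adjusted p = 0.832) and was lowest in vehicle library 1 (0.495 FPKM), as Sst and Npy were.

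The 24 genes of fast spiking and the perineuronal net had medians of −0.03, −0.08 and −0.11. Kcnc1, a fast potassium channel, differed by −0.35 between running and vehicle mice (SE 0.15, limma adjusted p = 0.753), and Kcns3, a modulatory subunit, by 0.33 between MPTP and vehicle mice without overlap (adjusted p = 0.991). The median r of this list was 0.48 with Pvalb and 0.48 with Slc32a1, given as a description. Its single genes ran from −0.76 (Tnr) to 0.90 (Cplx1) with Pvalb. These medians were not particular to the list. With Pvalb the median was 0.70 for cerebellar and hindbrain, 0.62 for glycine, 0.49 for pan-neuronal and 0.48 for oligodendrocyte genes. The lowest was −0.65, for hypothalamic genes. With Slc32a1 it was 0.81 for striatal and 0.66 for oligodendrocyte genes. The 20 other interneuron peptides and markers had medians of 0.02, 0.12 and 0.19. Crh, corticotropin-releasing hormone, had 12.4 FPKM in running library 2 and at most 3.82 elsewhere, and its difference of running from vehicle mice was 0.91 (limma adjusted p = 0.770).

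For the peptides, 7 of 10 receptor genes of somatostatin and neuropeptide Y were tested, with medians of 0.08, 0.13 and 0.10, and Npy6r was listed at 0 in all libraries. Npy2r, a presynaptic receptor, differed by 0.78 between running and vehicle mice (SE 0.45, limma adjusted p = 0.765), with 5.94 FPKM in running library 3 and at most 2.89 elsewhere. Over the 9 libraries the median r of these receptors was 0.65 with Sst, 0.69 with Npy and −0.65 with Slc32a1, again a description. Other lists did the same. Hippocampal and cortical excitatory genes had 0.86, 0.86 and −0.74 in this order, and microglia genes 0.62, 0.56 and −0.32. Striatal projection neuron genes went the other way, with −0.78, −0.73 and 0.81. The 13 genes of peptide processing had medians of 0.00, 0.01 and 0.05. Scg5, a chaperone of prohormone convertase, had 98.0, 95.6 and 92.4 FPKM in vehicle and 106, 127 and 106 in MPTP libraries, without overlap (0.24, SE 0.10, limma adjusted p = 0.991).

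**Figure D5:**
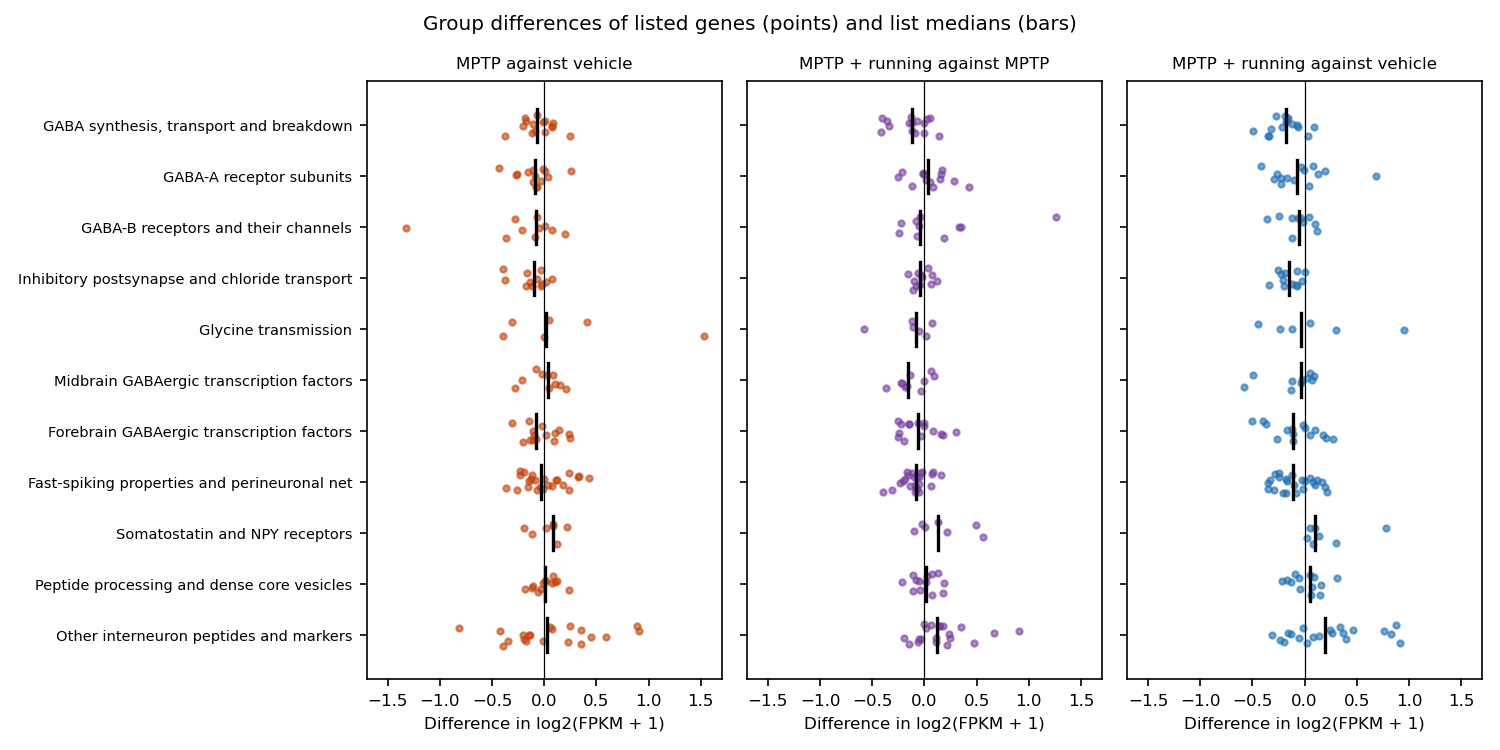
Differences in log2(FPKM + 1) of the tested genes of 11 lists in the 3 comparisons; each point is a gene and each bar the median of its list. The list medians lie between −0.17 and 0.19, and no gene passed the adjusted threshold.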

How the data were processed

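The deposited table holds 1 FPKM value per gene and library, used as the authors made it. The submitters' processing notes name GRCm38, bcl2fastq, HTSeq and DESeq2, without versions; the aligner, the FPKM tool and the strand setting were not given in the sources used here. Symbols and coordinates came from GENCODE M21. The genes described and the lists were chosen with earlier results of these data known. Named list genes are the 2 with the lowest p of a list in a comparison, and markers that check the tissue. Fold differences come from limma 3.58.1 (R 4.3.3) (trend option) on log2(FPKM + 1) in 1 fit of 9 libraries, with Benjamini-Hochberg adjustment over the 15997 genes whose mean reached 0.5 FPKM and a threshold of 0.05, tested on simulated data. Adding 1 understates changes of low genes. Exact permutations were enumerated in Python 3.11.15 with numpy 2.4.6, and the ranks for rho came from scipy 1.17.1. Depth was estimated from the steps of low FPKM values of genes with 1 transcript, of which 43.6% to 45.9% lay within 2% of a whole step, so counts were not recovered and fragment numbers are approximate. Replicate numbers carry no stated meaning. Deviations from group means correlated by 0.25, 0.33 and 0.11 for same-numbered vehicle and MPTP libraries, all over 0.1. Same-numbered pairs with running libraries ranged from −0.34 to 0.25, so the numbers were taken to pair only MPTP with vehicle. Differently numbered libraries correlated by up to 0.40 (MPTP library 1 with running library 2), so that pairing is an assumption. Alternatives were other pseudocounts, filters, scalings, weights and models, and leaving out each library.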

Additional observations from a re-analysis of the deposited data

How the results depend on the processing

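Among the 21 group differences of the 7 genes, none passed the threshold in any of 424 refits, the lowest adjusted p being 0.222, and 12 changed sign in at least 1 refit. An unadjusted limma p under 0.05 was found in 8 of the 424. With the replicate block these were Pvalb for MPTP and for running against vehicle, in a fit that also blocked the running libraries by number. With the block and only the MPTP and vehicle groups, they were Pvalb and Sst. The others were Gad1 against vehicle in both comparisons without vehicle library 2, Gad2 for running against MPTP without MPTP library 2, and Pvalb for MPTP against vehicle without MPTP library 3. Leaving out 1 library at a time moved the log2 difference, for MPTP against vehicle, from −0.46 to 0.020 for Gad1, −0.49 to 0.078 for Gad2, −0.10 to 0.19 for Slc32a1 and −0.22 to 0.54 for Npy. For running against MPTP it went from −0.19 to 0.072 for Gad1, −0.46 to 0.11 for Gad2, −0.51 to 0.14 for Pvalb, −0.40 to 0.30 for Gata3, −0.075 to 0.37 for Sst and −0.30 to 0.40 for Npy. For running against vehicle it went from −0.41 to 0.054 for Slc32a1 and −0.23 to 0.62 for Npy. Of the differences that kept their sign, those of MPTP from vehicle went from 0.38 to 0.96 for Pvalb, −0.75 to −0.024 for Gata3 and 0.065 to 0.58 for Sst, and that of Slc32a1 for running against MPTP from −0.47 to −0.0025. Those of running from vehicle mice went from −0.53 to −0.055 for Gad1, −0.57 to −0.22 for Gad2, 0.18 to 0.84 for Pvalb, −0.80 to −0.14 for Gata3 and 0.21 to 0.69 for Sst. Array weights gave 0.013 for Gad2 and −0.12 for Npy with MPTP against vehicle and 0.36 for Npy with running against MPTP. A pseudocount of 0.1 gave 0.044 for Gata3 with running against MPTP. Slc32a1 with MPTP against vehicle was −0.019 with the same FPKM sum and −0.0046 without mitochondrially encoded genes.

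The log2 ratios, none of which passed, changed sign only when a library was left out. For MPTP against vehicle the ranges were −0.17 to 0.28 for Gad1/Gad2, −0.23 to 1.056 for Npy/Gad2 and −0.29 to 0.16 for Npy/Sst. For running against MPTP they were −0.14 to 0.28 for Gad1/Gad2, −0.37 to 0.11 for Slc32a1/Gad2, −0.59 to 0.43 for Pvalb/Gad2, −0.21 to 0.71 for Gata3/Gad2, −0.12 to 0.85 for Sst/Gad2, −0.41 to 0.88 for Npy/Gad2 and −0.42 to 0.083 for Npy/Sst. For running against vehicle they were −0.054 to 0.30 for Gad1/Gad2, −0.027 to 0.37 for Slc32a1/Gad2, −0.93 to 0.12 for Gata3/Gad2 and −0.0056 to 1.07 for Npy/Gad2.

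Over all genes, the 2 calls for MPTP against vehicle became 0 with only those groups in the fit, also with the replicate block, and 0 to 32 with 1 library left out (32 without MPTP library 1). The 0 calls for running against MPTP became 3 without a filter, 1 with a filter of 5 FPKM, 1 with the same FPKM sum, 1 with array weights and 0 to 25 with 1 library left out (25 without MPTP library 1). Those for running against vehicle became 0 to 2. The replicate block gave 3, 0 and 0 calls in the 3 comparisons and changed no call among the 7 genes. With the same FPKM sum, r was −0.79 for Gad1 with the pan-neuronal score, −0.032 for Pvalb with Sst, 0.046 for Gata3 and −0.026 for Npy with the pan-neuronal score. The cause of these shifts was not tested. Depth limits Gata3 most, at an estimated 27 to 238 fragments per library. The added fit with the block and only the MPTP and vehicle groups was chosen after seeing the data.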

Other observations

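Deviations from group means over all genes correlated by 0.25, 0.33 and 0.11 for same-numbered vehicle and MPTP libraries. Vehicle library 1 with MPTP library 3 gave 0.17, and MPTP library 1 with running library 2 gave 0.40. Same numbers were therefore not singled out, and the pairing is an assumption. The ratio of MPTP to vehicle within same-numbered pairs was above 1 in all pairs for Pvalb and Sst, and on both sides of 1 for the other 5 genes. For Pvalb it was 1.56, 1.58 and 1.77 in pairs 1, 2 and 3. With the replicate number as a block for all groups, the running libraries included, the Pvalb difference of 0.70 kept its size. Its SE went from 0.39 to 0.12 (limma adjusted p = 0.275). With the block and only the vehicle and MPTP groups in the fit, the SE was 0.09 (limma adjusted p = 0.222). The gene was singled out after its values were seen, and neither fit passed the threshold. For Sst the ratios were 1.46, 1.40 and 1.061, and for Slc32a1, which lay nearest to 1, 0.994, 1.11 and 1.02. For Gad1 they were 0.829, 1.07 and 0.739 and for Gad2 0.805, 0.644 and 1.07. For Npy they were 1.98, 1.57 and 0.565 and for Gata3 0.790, 0.161 and 1.72.

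Running library 2 stood apart in hindbrain markers, with Hoxb5 at 10.01 FPKM and Slc6a5 at 34.6, and it had the highest Pvalb of the 9 libraries (121 FPKM), the highest Slc32a1 (43.6 FPKM) and the lowest Gad1 (33.6 FPKM). The part of hindbrain RNA in these values was not tested.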
